A study of Mus musculus with 12 samples.

Results

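The mitochondrial chromosome carried 37 of the 55401 rows of the count table: 13 mRNAs, 2 rRNAs and 22 tRNAs. The members are every row that the table places on this chromosome, so no measured level chose single rows. The set as a whole was picked with earlier results of these data known. All 13 mRNAs, both rRNAs and 14 of the 22 tRNAs had enough reads to be tested, and the other 8 tRNAs are described by their counts. RNA came from cells that the labels call astrocytes, sorted by flow cytometry from dissected hippocampus or cortex. All libraries shared one genotype, CD51-Flp; Rosa-CAG-FSF-tdTomato, in which a Flp recombinase driven by CD51 (integrin alpha-v, the product of Itgav) switches on the red reporter tdTomato. The 4 groups of 3 libraries were hippocampus CD51+, hippocampus CD51-, cortex CD51+ and cortex CD51-. Cells called CD51+ were tdTomato+/GFP+, and cells called CD51- were tdTomato-/GFP+. What drives GFP, the age of the mice and whether the libraries of a group came from separate or pooled animals are not given in the sources used here, so every p-value measures the spread between these libraries, which may be technical.

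Total counts ran from 4351897 to 12847183 read pairs per library. Libraries titled CD51+ have names with G and those titled CD51- names with GT, which may stand for the other class in each case, and each CD51 difference below would then change sign. All 14 astrocyte markers had counts in each of the 4 groups. Their summed level was 49700 to 64200 CPM (counts per 1e6 counts, with library sizes scaled by TMM factors) in hippocampus CD51+ libraries against 14700 to 17400 CPM in hippocampus CD51- libraries, and 58900 to 81000 CPM in cortex CD51+ libraries against 5320 to 15000 CPM in cortex CD51- libraries. One library stood apart, cortex CD51+ replicate 3, in which the 2 mitochondrial rRNAs took 58.4% of all counts, and results that rest on it are given with and without it.

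Mitochondria keep a small circular genome in many copies per cell, which is read from both strands into long precursors. The tRNAs lie between most of the mRNAs and rRNAs and are cut out of the precursor, which frees the other transcripts. The mRNAs encode core subunits of the respiratory chain: the mt-Nd genes belong to complex I, which takes electrons from NADH, mt-Cytb to complex III, which passes them to cytochrome c, the mt-Co genes to complex IV, which reduces oxygen, and mt-Atp6 and mt-Atp8 to the ATP synthase. The rRNAs mt-Rnr1 (12S) and mt-Rnr2 (16S) form the RNA core of the mitochondrial ribosome, and all other proteins of mitochondria, including those that transcribe and translate this genome, are made from nuclear genes. Of the mRNAs, mt-Nd6 is the one annotated on the minus strand, along with 8 of the 22 tRNAs.

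Several mitochondrial rows have near-identical copies among annotated nuclear transcripts, which bears on how many reads each row could receive. Bases 1 to 150 of mt-Co2 (chrM:7013-7162, plus strand, mm10) are shown first, because they are the same base for base in Gm28661, a pseudogene on chromosome 1 (chr1:24615416-24615565, minus strand). The next pair is shown for the single base, in capitals, that separates mt-Nd3 (chrM:9459-9608, plus strand) from its chromosome 1 copy Gm28438 (chr1:24612970-24613119, minus strand), which is T3C with positions counted from 1 at the first base of the row. The last pair sets mt-Nd6 (chrM:13921-14070, minus strand) beside a more diverged copy on chromosome 4, Gm11408 (chr4:80003765-80003914, minus strand), with the 5 differences A24G, T48C, A76G, G116A and A144G in capitals.
mt-Co2: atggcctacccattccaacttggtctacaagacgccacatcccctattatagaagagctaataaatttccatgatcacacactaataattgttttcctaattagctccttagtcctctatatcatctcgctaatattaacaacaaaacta
mt-Nd3: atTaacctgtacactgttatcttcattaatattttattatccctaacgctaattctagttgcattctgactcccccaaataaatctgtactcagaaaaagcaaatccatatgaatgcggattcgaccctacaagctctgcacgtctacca
Gm28438: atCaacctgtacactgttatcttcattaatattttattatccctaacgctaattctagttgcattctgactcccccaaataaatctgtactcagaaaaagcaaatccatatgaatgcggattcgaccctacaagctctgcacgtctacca
mt-Nd6: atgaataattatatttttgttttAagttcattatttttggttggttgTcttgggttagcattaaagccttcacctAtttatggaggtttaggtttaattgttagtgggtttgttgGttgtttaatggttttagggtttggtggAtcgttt
Gm11408: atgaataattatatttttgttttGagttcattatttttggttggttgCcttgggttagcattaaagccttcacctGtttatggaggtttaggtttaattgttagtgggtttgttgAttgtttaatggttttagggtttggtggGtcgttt

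The 13 mRNAs fell into a high and a low set by level per length. Over the 12 libraries, 7 of them (mt-Nd1, mt-Nd2, mt-Co1, mt-Nd4, mt-Nd5, mt-Nd6 and mt-Cytb) had mean levels of 8810 to 77700 CPM per kb, with a median of 39100. The other 6 (mt-Co2, mt-Atp8, mt-Atp6, mt-Co3, mt-Nd3 and mt-Nd4l) had mean levels of 10.9 to 1820 CPM per kb, with a median of 381, and together they made up 0.305% to 0.668% of the mRNA counts of a library. The highest mean of the low set lay below the lowest mean of the high set. mt-Nd2, a complex I subunit, had the highest mean at 77700 CPM per kb, and mt-Nd3, also of complex I, the lowest at 10.9 CPM per kb, with 328 counts in all 12 libraries.

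All 6 low mRNAs lie inside one stretch of the genome, chrM:6390-11042, that runs from the last part of mt-Co1 to the first part of mt-Nd4. This stretch of 4653 bases is matched by 7 pseudogene rows in a row on chromosome 1 (chr1:24611535-24616197), which aligned to their mitochondrial rows at an identity of 99.7% or more. The share of 150-base windows, the read length, that occur unchanged in an annotated nuclear transcript was 99.4% for mt-Co2, 99.4% for mt-Atp6, 99.8% for mt-Co3, 97.0% for mt-Nd3 and 98.0% for mt-Nd4l. It was 59.2% for mt-Nd4 and 23.6% for mt-Co1, whose ends reach into the stretch, and 0.0% for mt-Nd1, mt-Nd2, mt-Nd5, mt-Nd6, mt-Cytb and both rRNAs. mt-Atp8 is the exception among the low rows at 0.0%: the bases of chromosome 1 between the copies of mt-Co2 and mt-Atp6 belong to no annotated transcript and were not compared.

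The chromosome 1 copies themselves held counts in each library. The 5 copies that match low rows (mt-Co2, mt-Atp6, mt-Co3, mt-Nd3 and mt-Nd4l) held 106 to 187 counts for every 100 counts in those 5 rows. Gm10925, the copy of mt-Atp6, had 74775 counts over the 12 libraries against 31602 in mt-Atp6, and Gm28438 had 4702 against 328 in mt-Nd3, whereas Gm28661 had 21070 against 37212 in mt-Co2. The levels of the 6 low mRNAs are therefore uncertain, and so is part of mt-Nd4 and mt-Co1, since read pairs that fit both places could be split between them or dropped. Adding the copies to the mitochondrial total moved the chrM share by little, to 20.3% to 71.2% of counts over the 12 libraries against 20.2% to 71.1% without them. How far the copies set the low levels was not tested.

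**Figure D1:**
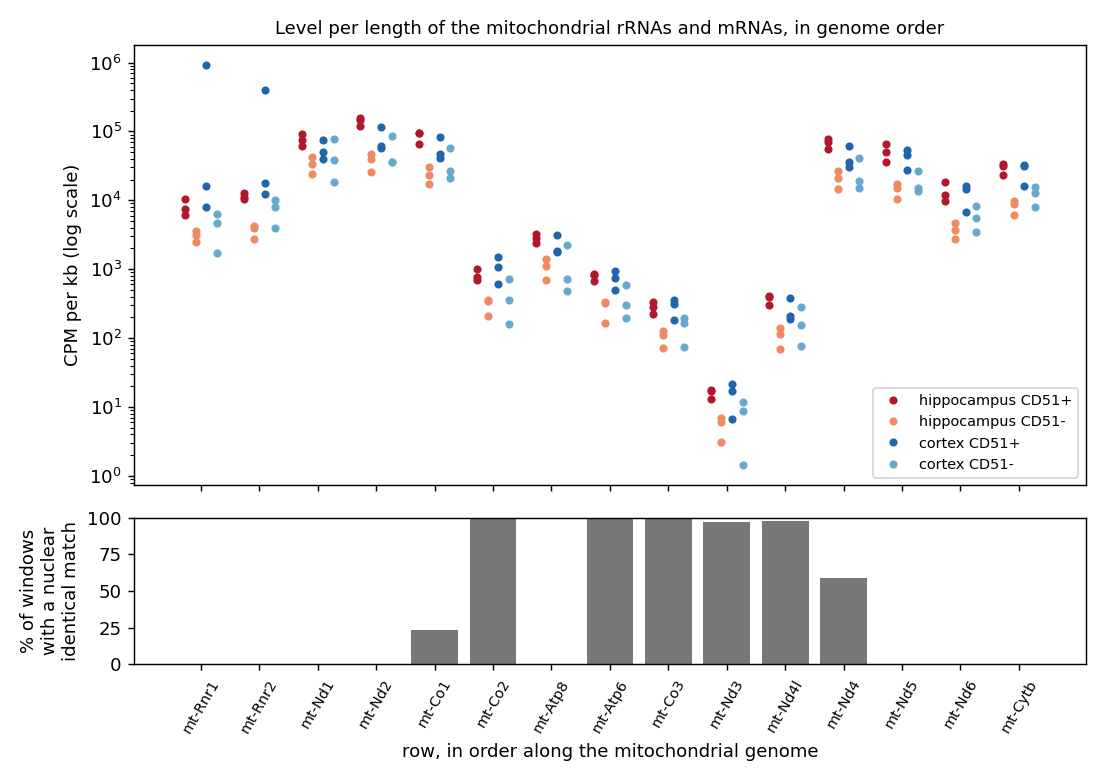
Level of the 2 rRNAs and 13 mRNAs in genome order (upper panel, CPM per kb, log scale, 1 point per library, coloured by group) and the percent of 150-base windows of each row found unchanged in an annotated nuclear transcript (lower panel). The 6 rows from mt-Co2 to mt-Nd4l sit far below their neighbours, and 5 of these 6 have 97.0% to 99.8% of windows with an identical nuclear match.

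The first comparison asked how hippocampal cells labelled CD51+ differed from those labelled CD51-. All 13 mitochondrial mRNAs had fitted levels 2.30-fold to 3.80-fold those of CD51- libraries, and 6 of them passed the test. Without the 2 rRNAs, which were left out of both parts of the ratio, mitochondrial rows took 48.6%, 51.0% and 52.4% of the counts of the CD51+ libraries (50.7% ± 1.92, SD, n = 3) and 25.6%, 28.5% and 19.3% of those of the CD51- libraries. The 13 mRNAs amounted to 94.6, 104 and 110 counts per 100 counts of nuclear genes in CD51+, against 34.3, 39.7 and 23.9 in CD51-. The groups did not overlap on either measure. In bulk libraries such as these, fewer cells of a type and less RNA per cell cannot be told apart.

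**Figure D2:**
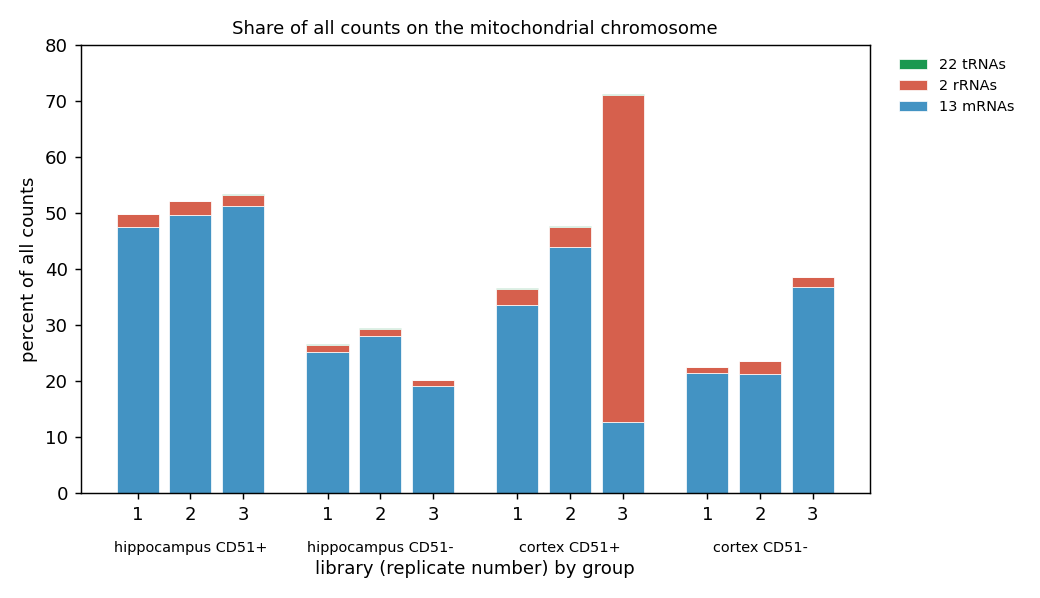
Percent of all counts of each library that fell on the 13 mRNAs, 2 rRNAs and 22 tRNAs of the mitochondrial chromosome, by group and replicate. The hippocampus CD51+ bars all stand above the hippocampus CD51- bars. In the mRNA part the cortex classes overlap, as CD51- replicate 3 (36.8%) lies above CD51+ replicate 1 (33.5%). The mRNA part of cortex CD51+ replicate 3 (12.7%), a library that is 58.4% rRNA, lies below those of all cortex CD51- libraries. The tRNA part, at most 0.104%, is too thin to see.

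Cell markers moved with the same contrasts. The summed level of 12 microglia markers was 205 to 1570 CPM in hippocampus CD51+ libraries against 5200 to 7570 CPM in hippocampus CD51-, and 336 to 1000 CPM in cortex CD51+ against 8120 to 11200 CPM in cortex CD51-. That of 12 oligodendrocyte markers was 1270 to 4990 CPM in hippocampus CD51+ against 6880 to 37900 CPM in hippocampus CD51-, and 2720 to 2860 CPM in cortex CD51+ against 33300 to 63800 CPM in cortex CD51-. Sox10, a defining factor of that lineage, had no count in 3 of the 4 groups. The 12 immediate early genes, which respond to stimulation and to tissue dissociation, summed to 141 to 418 CPM in hippocampus CD51+ against 5680 to 11700 CPM in hippocampus CD51-, and to 37.8 to 184 CPM in cortex CD51+ against 10800 to 15500 CPM in cortex CD51-. The 10 neuronal markers summed to 214 to 440 CPM in hippocampus CD51+ against 26.6 to 199 CPM in hippocampus CD51-. In cortex they summed to 130 to 426 CPM in CD51+ against 183 to 377 CPM in CD51-. None of the 8 tested passed in either region. The 9 endothelial and pericyte markers summed to at most 258 CPM, and Cldn5 had no count in any group. Of 5 tested, Pdgfrb rose in cortex, and averaged over regions Pdgfrb rose and Pecam1 fell. Over all tested genes 5.05% rose in cortex, and 8.87% rose and 13.9% fell averaged over regions. The 6 nuclear-retained RNAs summed to 4710 to 8360 CPM in hippocampus CD51+ against 8760 to 13300 CPM in hippocampus CD51-, and to 7530 to 11200 CPM in cortex CD51+ against 10200 to 16200 CPM in cortex CD51-. The part of these markers in the mitochondrial differences was not tested.

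In hippocampus 6 of the 29 tested members rose and none fell, where 0.618% of the 12613 tested genes rose, 3.31% changed in either direction and 2.7% fell (edgeR quasi-likelihood test, adjusted p under 0.05 over all genes). The 6 were all mRNAs: mt-Nd2, mt-Nd4, mt-Nd5 and mt-Nd6 of complex I, mt-Co1 of complex IV and mt-Cytb of complex III. The median log2 difference was 1.70 (CD51+ over CD51-) over the 13 mRNAs and -0.22 over all tested genes. For each of the 13 mRNAs the 3 CD51+ libraries lay above the 3 CD51- libraries, a separation seen in this direction for 10.5% of all tested genes and in either direction for 27.1%.

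mt-Nd2 stood at 125000, 153000 and 164000 CPM in the hippocampus CD51+ libraries against 41100, 48200 and 27100 CPM in CD51-. Its log2 difference was 1.93 ± 0.34 (± SE; edgeR adjusted p = 0.00172). The lowest CD51+ library was far above the highest CD51- library. mt-Nd5, a complex I subunit, stood at 65200, 91000 and 120000 CPM in CD51+ against 27300, 31700 and 18900 CPM in CD51-, a log2 difference of 1.83 ± 0.33 (± SE; edgeR adjusted p = 0.00172). mt-Cytb, the one complex III subunit of this genome, stood at 26900, 36000 and 38500 CPM in CD51+ against 9970, 11000 and 6970 CPM in CD51-, a log2 difference of 1.86 ± 0.34 (± SE; edgeR adjusted p = 0.00235). Neither gene overlapped between the classes.

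mt-Co1, the catalytic subunit of complex IV, stood at 101000, 147000 and 149000 CPM in hippocampus CD51+ libraries against 35500, 46700 and 27100 CPM in CD51- libraries, a log2 difference of 1.86 ± 0.35 (± SE; edgeR adjusted p = 0.00259). mt-Nd4 stood at 76800, 106000 and 96700 CPM in CD51+ against 29100, 36600 and 20400 CPM in CD51-, a log2 difference of 1.70 ± 0.35 (± SE; edgeR adjusted p = 0.00707). The minus-strand mRNA mt-Nd6 stood at 5090, 6180 and 9440 CPM in CD51+ against 1900, 2400 and 1400 CPM in CD51-, a log2 difference of 1.86 ± 0.43 (± SE; edgeR adjusted p = 0.0162). Its difference was close in size to those of the plus-strand mRNAs, although the counting ignored strand, so plus-strand and minus-strand RNA over a row cannot be told apart. mt-Nd6 missed the threshold without hippocampus CD51+ replicate 3 or without hippocampus CD51- replicate 3, with a highest adjusted p of 0.0952.

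The rest of the hippocampal mRNAs and rRNAs did not pass the test. mt-Nd1, a complex I subunit at the membrane, stood at 71500, 89000 and 58100 CPM in CD51+ against 31900, 40200 and 23000 CPM in CD51- (log2 fold change 1.20 ± 0.38, SE; edgeR adjusted p = 0.0832). The 6 mRNAs of the low set had log2 fold changes of 1.38 to 1.77 and adjusted p of 0.151 to 0.757. The rRNAs had 1.4 ± 0.89 for mt-Rnr1 and 1.63 ± 0.72 for mt-Rnr2 (± SE; edgeR adjusted p = 0.446 and 0.213), with standard errors larger than those of the mRNAs at a like level. With cortex CD51+ replicate 3 out of the fit, mt-Rnr2 was 1.63 ± 0.34 with an edgeR adjusted p of 0.00557. Under DESeq2 mt-Nd4 had an adjusted p of 0.0501, and limma-voom, whose standard errors reached 158 on the log2 scale for mt-Rnr1, kept mt-Nd6, lost the calls of the other 5 and called mt-Atp6 (adjusted p = 0.0363) and mt-Atp8 (adjusted p = 0.0493). mt-Nd1 passed in 8 of 25 alternative fits, among them those without cortex CD51+ replicate 1 or 2 or any one cortex CD51- library.

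**Figure D3:**
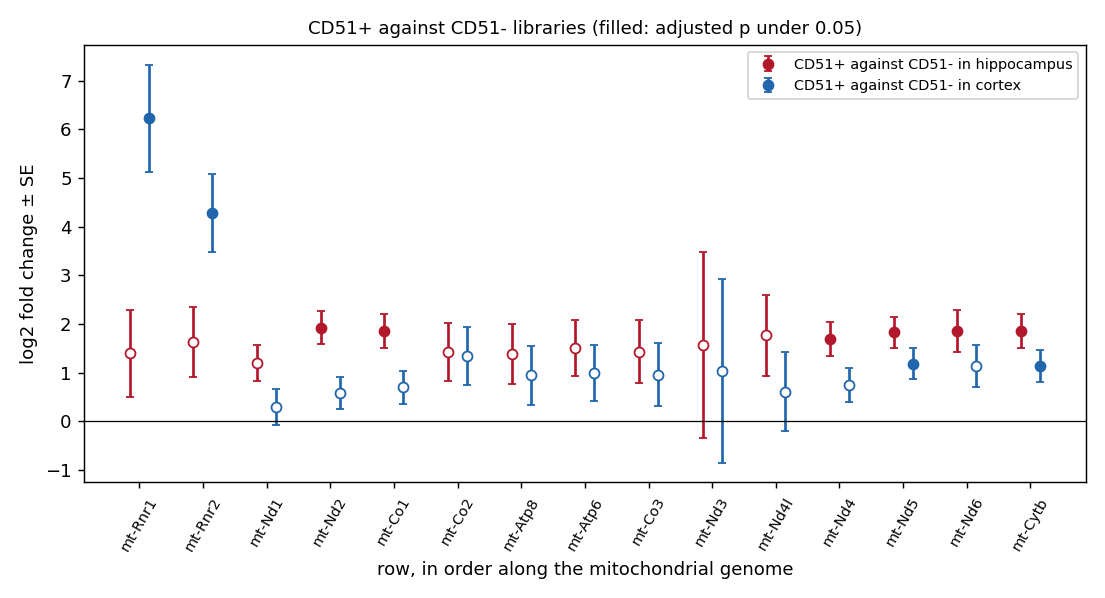
Log2 fold change of CD51+ against CD51- libraries with its standard error for the 2 rRNAs and 13 mRNAs, in hippocampus (red, left) and cortex (blue, right), with filled points where the edgeR adjusted p was under 0.05. With TMM scaling all points lie above 0 (several fall below it when libraries are scaled to the 13 mRNAs), the hippocampal points of the mRNAs lie between 1.20 and 1.93, and the cortical rRNAs reach 6.23 and 4.28.

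In cortex the mitochondrial mRNAs separated the classes less clearly. Without the 2 rRNAs, mitochondrial rows took 34.6%, 45.7% and 30.6% of the counts of the CD51+ libraries (37% ± 7.82, SD, n = 3) and 21.6%, 21.7% and 37.5% of those of the CD51- libraries (26.9% ± 9.15, SD, n = 3). The 13 mRNAs amounted to 52.7, 84.1 and 44.1 counts per 100 nuclear counts in CD51+ and 27.6, 27.7 and 59.9 in CD51-. The groups overlapped through CD51- replicate 3, which lay above 2 of the 3 CD51+ libraries. Of the 29 tested members, 5 rose and none fell, where 5.05% of tested genes rose, 6.27% fell and 11.3% changed in either direction: mt-Rnr1, mt-Rnr2, mt-Nd5, mt-Cytb and mt-Tc. The median log2 difference was 0.96 over the 13 mRNAs and -0.03 over all tested genes, and the libraries did not overlap for 2 of the 13 mRNAs, where 15.1% of tested genes separated in this direction and 31.7% in either.

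mt-Nd5 stood at 50500, 97300 and 82800 CPM in the cortex CD51+ libraries against 25100, 27600 and 48700 CPM in CD51-, a log2 difference of 1.18 ± 0.32 (± SE; edgeR adjusted p = 0.0192). mt-Cytb stood at 18200, 36800 and 35900 CPM in CD51+ against 9010, 14700 and 17600 CPM in CD51-, a log2 difference of 1.14 ± 0.34 (± SE; edgeR adjusted p = 0.0321). These are the 2 mRNAs whose libraries did not overlap, by small margins: CD51+ replicate 1 was just above CD51- replicate 3 in both. mt-Nd6 stood at 3480, 7580 and 8510 CPM in CD51+ against 1810, 4240 and 2860 CPM in CD51- and missed the threshold (log2 fold change 1.13 ± 0.43, SE; edgeR adjusted p = 0.077). The other 4 mRNAs of the high set overlapped between the classes. mt-Nd2 stood at 63700, 122000 and 59500 CPM in CD51+ against 37900, 37100 and 88800 CPM in CD51- (log2 fold change 0.58 ± 0.33, SE; edgeR adjusted p = 0.238), mt-Co1 had 0.70 ± 0.34 (adjusted p = 0.157), mt-Nd4 0.75 ± 0.35 (adjusted p = 0.137) and mt-Nd1 0.30 ± 0.37 (adjusted p = 0.631). The 6 mRNAs of the low set had cortical log2 fold changes of 0.61 to 1.35 and adjusted p of 0.119 to 0.76.

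The number of cortical calls moved with single libraries. Without CD51- replicate 3, 8 members rose: both rRNAs, mt-Nd1, mt-Nd2, mt-Co1, mt-Nd4, mt-Nd5 and mt-Cytb. Without CD51+ replicate 3, mt-Nd5 alone rose, without CD51+ replicate 2 the 2 rRNAs alone, and without CD51- replicate 1 the 2 rRNAs and mt-Nd5. Under DESeq2 mt-Nd5 and mt-Cytb had adjusted p of 0.164 and 0.193 in cortex. In the limma-voom fit mt-Nd5 was not called (adjusted p = 0.931) and mt-Cytb was kept (adjusted p = 0.00194). That fit also called mt-Nd4, mt-Nd6 and mt-Co2 as higher (limma-voom adjusted p = 0.00143, 0.014 and 0.0225). Neither mt-Nd5 nor mt-Cytb passed when the cortex libraries were fitted alone.

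The rRNA result in cortex rested on CD51+ replicate 3. In that library mt-Rnr1 had 4387449 and mt-Rnr2 3111899 counts, whereas in the other 11 libraries mt-Rnr1 had 19657 to 120810 and mt-Rnr2 48732 to 223689. mt-Rnr1 stood at 7740, 15500 and 890000 CPM in CD51+ and at 1660, 4540 and 5970 CPM in CD51-, and mt-Rnr2 at 19800, 28700 and 631000 CPM in CD51+ and at 6370, 16100 and 12600 CPM in CD51- (the TMM factor of that library was 0.3843, which raises its CPM). All 3 CD51+ libraries lay above all 3 CD51- libraries for both rRNAs. The log2 fold changes were 6.23 ± 1.10 and 4.28 ± 0.80 (± SE; edgeR adjusted p = 0.000869 and 0.00144). Without CD51+ replicate 3 they were 1.46 ± 0.46 and 1.01 ± 0.37 (± SE; edgeR adjusted p = 0.0557 and 0.097), and both calls ended. With robust dispersion estimates they had adjusted p of 0.0549 and 0.0613, limma-voom did not call them, and DESeq2 left them without an adjusted p.

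Other values of that library were also out of the range of the rest. It had 459 rRNA counts per 100 mRNA counts, against 3.67 to 11.4 in the other 11 libraries. Its ratio of mt-Rnr1 to mt-Rnr2 counts was 1.41, against 0.261 to 0.541. The tRNA mt-Tf, which lies just ahead of mt-Rnr1, had 219 counts there against 0 to 9 elsewhere, and mt-Tv, which lies between the rRNAs, had 12 against 0 or 1. A cytosolic ribosomal RNA row on chromosome 17, CT010467.1, took 6.6% of the counts outside the mitochondrial rRNAs, against 1.17% to 2.59%. Both kinds of rRNA were thus high in that library, and the part of rRNA removal during library preparation was not tested.

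Averaged over both regions, 12 of the 29 tested members rose and none fell, where 8.87% of tested genes rose, 13.9% fell and 22.7% changed in either direction. They were 9 of the 13 mRNAs, both rRNAs and the tRNA mt-Tm. The libraries of the 2 classes did not overlap over both regions for mt-Nd5, mt-Cytb, mt-Rnr2, mt-Ti and mt-Tw, a separation found in this direction for 3.35% of tested genes and in either for 10.3%. mt-Nd5 had the largest change among the mRNAs, a log2 difference of 1.51 ± 0.23 (± SE; edgeR adjusted p = 5.77e-05), followed by mt-Cytb at 1.5 ± 0.24 (adjusted p = 0.000115) and mt-Nd6 at 1.5 ± 0.30 (adjusted p = 0.00123). mt-Nd2, mt-Co1 and mt-Nd4 had 1.25 ± 0.24, 1.28 ± 0.24 and 1.22 ± 0.25 (adjusted p = 0.000644, 0.000621 and 0.00118). mt-Nd1 had the smallest, 0.75 ± 0.26 (adjusted p = 0.0425), and that call ended without cortex CD51+ replicate 2 (adjusted p = 0.0788), without hippocampus CD51+ replicate 2 (adjusted p = 0.0697), with nuclear counts as library size (adjusted p = 0.0609) and under DESeq2 (adjusted p = 0.256). In the low set, mt-Co2 (1.39 ± 0.42, adjusted p = 0.0201) and mt-Atp6 (1.26 ± 0.41, adjusted p = 0.0292) passed, although single libraries left out, cortex CD51+ replicate 3 among them, ended the calls with adjusted p of up to 0.0715 for mt-Co2 and 0.0839 for mt-Atp6, whereas mt-Atp8, mt-Co3, mt-Nd3 and mt-Nd4l had adjusted p of 0.0532 to 0.533.

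The rRNAs had log2 fold changes of 3.82 ± 0.69 for mt-Rnr1 and 2.96 ± 0.54 for mt-Rnr2 over both regions (± SE; edgeR adjusted p = 0.000444 and 0.000432). Without cortex CD51+ replicate 3 they were 1.43 ± 0.31 and 1.32 ± 0.25 (± SE; edgeR adjusted p = 0.00257 and 0.000656), of the size of the mRNAs. Under both DESeq2, which left the 2 rows without an adjusted p, and limma-voom the 2 rRNA calls were not made, and limma-voom also lost those of mt-Nd2, mt-Co1, mt-Nd4 and mt-Nd5.

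The CD51 difference was not shown to differ between the regions. No member passed the test of the difference, nor did any of the 12613 genes (0.0%), although 6 of the 29 members had an unadjusted p under 0.05. The difference was 1.35 ± 0.47 log2 units for mt-Nd2 (± SE; edgeR adjusted p = 0.23) and 1.16 ± 0.48 for mt-Co1 (± SE; edgeR adjusted p = 0.32), both larger in hippocampus, and -4.83 ± 1.30 for mt-Rnr1 (± SE; edgeR adjusted p = 0.157). DESeq2 and limma-voom called 0 members as well, which says little for the rRNAs. In the CD51 contrasts above, DESeq2 gave them no adjusted p, and limma-voom standard errors reached 158 for mt-Rnr1. Among all genes DESeq2 called 522 in the test of the difference, where the main fit called none.

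Nor did a member pass between hippocampus and cortex averaged over the classes, where 0.19% of tested genes did (0.159% higher and 0.0317% lower in hippocampus) and 4 of the 29 members had an unadjusted p under 0.05. The 13 mRNAs had log2 fold changes of -0.40 to 0.19, with a median of -0.08 against 0.16 over all tested genes. The rRNAs had -2.89 ± 0.66 and -2.32 ± 0.52 (± SE; edgeR adjusted p = 0.0693 and 0.0692), and without cortex CD51+ replicate 3 they had -0.57 ± 0.31 and -0.74 ± 0.25 (adjusted p = 0.425 and 0.204). DESeq2 called 1 member, the tRNA mt-Tl2, and limma-voom called 0. With that library kept and 1 other left out, the 2 rRNAs passed as lower in hippocampus in 9 of 11 fits.

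The make-up among the mRNAs varied between libraries, more for single mRNAs than for the complex I total. mt-Nd1, for one, held 9.11% to 20.6% of the mRNA counts of a library. Complex I mRNAs held 67.4% to 73.9% of the mRNA counts of a library, complex IV mRNAs 18.3% to 26.6%, mt-Cytb 4.64% to 10.8% and the ATP synthase mRNAs 0.168% to 0.26%. The shares of complex IV and the ATP synthase understate those complexes as far as the low rows lost reads. When libraries were scaled to their 13-mRNA total, no mRNA passed the test in any of the 5 contrasts, so no single mRNA was shown to differ from the set as a whole. On that scale 12.8% of genes changed in cortex, 11.6% in hippocampus and 28.8% averaged over regions, most of them lower in CD51+, 0.206% changed between hippocampus and cortex, and 0.00793% differed in the CD51 effect between regions.

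In hippocampus the share of 5 of the 13 mRNAs (mt-Nd1, mt-Nd2, mt-Atp8, mt-Co3 and mt-Cytb) did not overlap between the classes, and in cortex that of 1, mt-Nd5, where 37.7% and 30.6% of all tested genes separated on the same scale. mt-Nd1 held 15.1%, 14.1% and 9.11% of the mRNA counts in hippocampus CD51+ libraries against 17.9%, 18.5% and 18.4% in hippocampus CD51- libraries, and mt-Nd2 held 26.4%, 24.3% and 25.7% in CD51+ against 23.1%, 22.1% and 21.6% in CD51-. None of these shares passed the test. Relative to the mRNA total the log2 fold change of mt-Nd1 was -0.51 ± 0.26 in hippocampus and -0.43 ± 0.19 averaged over the regions (± SE; edgeR adjusted p = 0.198 and 0.0802). mt-Nd5 held 16.4%, 17.7% and 25.0% in cortex CD51+ libraries against 16.3%, 15.3% and 12.8% in cortex CD51- libraries, a log2 difference of 0.41 ± 0.24 relative to the mRNA total (± SE; edgeR adjusted p = 0.241). The highest mt-Nd5 and mt-Cytb shares, 25.0% and 10.8%, were both in cortex CD51+ replicate 3. Both rRNAs stayed higher in cortex CD51+ relative to the mRNA total (log2 fold change 5.73 ± 1.05 and 3.63 ± 0.79, SE; edgeR adjusted p = 0.000763 and 0.00353), which rests on the same library, and did not pass in hippocampus (-0.35 ± 0.86 and -0.11 ± 0.71, adjusted p = 0.814 and 0.934).

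**Figure D4:**
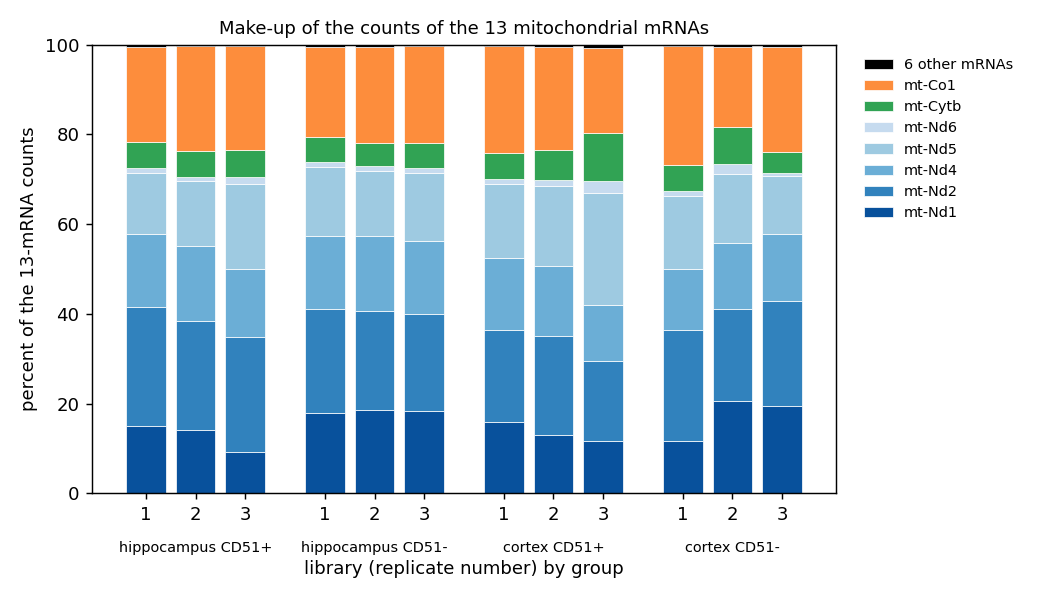
Percent of the 13-mRNA counts of each library held by the 7 abundant mRNAs and by the 6 mRNAs of the low set together (black), by group and replicate. Single parts vary between libraries. The mt-Nd1 part is smaller in the hippocampus CD51+ libraries (9.11% to 15.1%) than in the hippocampus CD51- libraries (17.9% to 18.5%). It did not pass the test (edgeR adjusted p = 0.198). On this scale 5 of the 13 mRNAs and 37.7% of all tested genes separated the classes in hippocampus.

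The 22 tRNAs took 0.018% to 0.104% of the counts of a library. Their rows are short, and a read pair that also touches a neighbouring row could be counted to that row or to neither. These counts may therefore miss pairs from RNA that spans both rows. The sequences of 4 tRNAs with many counts and of 2 with none are shown, with the anticodon in capitals: mt-Tl1 (leucine, chrM:2676-2750, plus strand), mt-Tm (methionine, chrM:3845-3913, plus strand), mt-Tp (proline, chrM:15356-15422, minus strand), mt-Tc (cysteine, chrM:5192-5257, minus strand), and, both on the plus strand, mt-Td (aspartate, chrM:6942-7011) and mt-Tg (glycine, chrM:9391-9458).
mt-Tl1: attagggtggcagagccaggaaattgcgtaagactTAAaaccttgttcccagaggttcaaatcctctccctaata
mt-Tm: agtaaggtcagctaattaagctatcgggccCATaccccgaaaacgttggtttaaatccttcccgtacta
mt-Tp: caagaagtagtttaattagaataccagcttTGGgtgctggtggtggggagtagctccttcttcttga
mt-Tc: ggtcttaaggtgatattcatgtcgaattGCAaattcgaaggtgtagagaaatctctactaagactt
mt-Td: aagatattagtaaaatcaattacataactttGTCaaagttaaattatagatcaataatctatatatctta
mt-Tg: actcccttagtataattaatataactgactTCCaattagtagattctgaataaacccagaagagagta

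The first 4 of these rows, with mt-Te (glutamate), held most of the tRNA counts: mt-Tm had 16356 over the 12 libraries, mt-Tp 15582, mt-Tl1 15307, mt-Te 5212 and mt-Tc 3825. At the other end mt-Td and mt-Tg had no count in any library, which allows up to 3 counts over a group. Both lie between the ends of the stretch whose mRNAs have chromosome 1 copies, as do mt-Ts1, mt-Tk and mt-Tr. The 5 tRNAs there had 103 counts in all, against 62957 in the 17 tRNAs outside it. Low counts were not confined to the stretch. Outside it mt-Tv had 15, mt-Tt 21, mt-Th 27 and mt-Ts2 101 counts, whereas inside it mt-Tr had 31 and mt-Ts1 70. None of the 5 tRNAs inside aligned to an annotated nuclear transcript, and the bases of chromosome 1 between the copies were not compared. Any part of chromosome 1 in their counts was not tested. Rows annotated on the minus strand held 33.7% to 66.0% of the tRNA counts of a library.

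Of the 14 tRNAs tested, mt-Tc rose in cortex and mt-Tm rose averaged over regions. In cortex 9 of all 22 tRNA rows (the untested mt-Tf among them) lay higher in CD51+ without overlap and 1 lower. Over tested genes 15.1% separated in this direction and 31.7% in either. The rows beside mt-Tc (mt-Tw, mt-Ta, mt-Tn and mt-Ty) had cortical log2 fold changes of 3.19 to 5.41 and did not pass (edgeR adjusted p of 0.113 to 0.286). mt-Tc stood at 64.8, 113 and 75.9 CPM in cortex CD51+ libraries against 9.03, 8.63 and 3.79 CPM in cortex CD51- libraries, a log2 difference of 3.56 ± 1.09 (± SE; edgeR adjusted p = 0.0373). In hippocampus it stood at 45.0, 20.4 and 46.4 CPM in CD51+ against 32.8, 73.8 and 14 CPM in CD51-, which overlapped (log2 fold change -0.11 ± 0.98, SE; edgeR adjusted p = 0.977). The difference between the regions was -3.67 ± 1.44 log2 units and did not pass (± SE; edgeR adjusted p = 0.297). mt-Tm stood at 206, 327 and 414 CPM in hippocampus CD51+ against 92.3, 93.1 and 70.4 CPM in hippocampus CD51-, and at 118, 350 and 216 CPM in cortex CD51+ against 120, 58.8 and 180 CPM in cortex CD51-. Its log2 fold change over both regions was 1.41 ± 0.46 (± SE; edgeR adjusted p = 0.0306). The mt-Tc call ended when any one of the 6 cortex libraries was left out (highest edgeR adjusted p 0.113), and it held in 12 of 24 alternative fits. The mt-Tm call held in 12 of 23, and single libraries left out gave an edgeR adjusted p of up to 0.101. Both totals leave out the fit scaled to the 13-mRNA total, in which neither tRNA passed.

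The other tRNAs with many counts did not pass. mt-Tl1 stood at 241, 286 and 359 CPM in hippocampus CD51+ against 54.9, 165 and 70.7 CPM in hippocampus CD51- (log2 fold change 1.61 ± 0.76, SE; edgeR adjusted p = 0.248), mt-Tp had 0.98 ± 0.73 (adjusted p = 0.545) and mt-Te 0.34 ± 1.09 (adjusted p = 0.925). Between regions, mt-Tl2, the second leucine tRNA, stood at 5.43 to 35.7 CPM in the 6 hippocampus libraries and at 0.0 to 5.27 CPM in the 6 cortex libraries, which did not overlap, by a small margin, where 0.793% of tested genes separated in this direction and 0.88% in either (log2 fold change 3.10 ± 1.34, SE; edgeR adjusted p = 0.271). Its neighbour mt-Ts2, a serine tRNA, had no count in the 3 cortex CD51+ libraries and 11 counts in the 3 cortex CD51- libraries, against 64 and 26 counts in hippocampus CD51+ and CD51-. At such counts these differences rest on few reads.

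**Figure D5:**
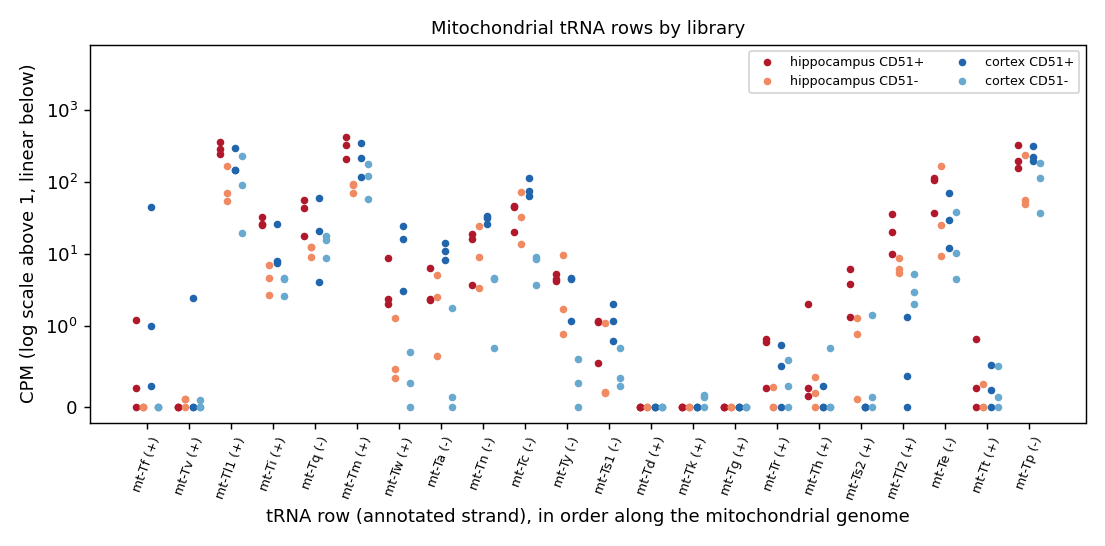
CPM of the 22 tRNA rows in genome order, 1 point per library, coloured by group, on an axis that is logarithmic above 1 and linear below. The rows from mt-Td to mt-Tr lie at or near 0, as do mt-Tv, mt-Th and mt-Tt in most libraries. By contrast mt-Tm, mt-Tp and mt-Tl1 reach 19.8 CPM or more in every library.

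Counts for the nuclear genes of mitochondrial proteins are set beside the shares over all tested genes: 0.618% rose and 2.7% fell in hippocampus, 5.05% rose and 6.27% fell in cortex, and 8.87% rose and 13.9% fell averaged over regions. Of the 55 nuclear respiratory chain subunits tested, none rose or fell in hippocampus, where the median log2 difference was 0.48, and none of them had an unadjusted p under 0.05. In cortex 2 rose and none fell, with a median of 1.28. They were Atp5b, the catalytic beta subunit of the ATP synthase, at 481 ± 299 CPM in CD51+ against 76.6 ± 42.6 CPM in CD51- (SD, n = 3; log2 fold change 2.65 ± 0.73, SE; edgeR adjusted p = 0.0224), and Atp5g3, a subunit of its membrane ring, at 38.0 ± 18.8 CPM in CD51+ against 1.47 ± 0.801 CPM in CD51- (edgeR adjusted p = 0.036). Averaged over regions 3 rose: Atp5b, Cox7a2 of complex IV and Ndufs6 of complex I. Without cortex CD51+ replicate 3 Atp5g3 and Ndufs6 no longer passed (edgeR adjusted p = 0.067 and 0.0542). The summed level of the list was 2520 to 3320 CPM in hippocampus CD51+ against 1850 to 2320 CPM in hippocampus CD51-, and 2990 to 4230 CPM in cortex CD51+ against 1040 to 2100 CPM in cortex CD51-, so the classes did not overlap in either region.

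The machinery that reads and handles this genome was thinly covered. Of 12 tested genes of mitochondrial transcription and the nucleoid, none passed in hippocampus or cortex, and 1 fell averaged over regions, Primpol, a primase-polymerase (log2 fold change -4.91 ± 1.52, SE; edgeR adjusted p = 0.0228). Their summed level was 33.4 to 252 CPM over all libraries. Of 20 genes of mitochondrial RNA processing and stability, none passed in hippocampus, 1 rose and 1 fell in cortex, and 1 rose and 3 fell averaged over regions, where 11.3% of tested genes changed in cortex and 22.7% averaged over regions. The mitochondrial poly(A) polymerase Mtpap had no count in the cortex CD51+ libraries and 14.6 ± 17 CPM in cortex CD51- (SD, n = 3), and Fastkd3, an RNA-binding protein of mitochondria, had 19.5 ± 29.4 CPM in cortex CD51+ and no count in cortex CD51-. Grsf1, a protein of mitochondrial RNA granules, fell averaged over regions: 91.0 ± 30.6 CPM in hippocampus CD51+ against 264 ± 134 CPM in hippocampus CD51-, and 35.6 ± 22.3 CPM in cortex CD51+ against 114 ± 31.8 CPM in cortex CD51- (SD, n = 3; log2 fold change -1.61 ± 0.51, SE; edgeR adjusted p = 0.0271). The deadenylase-like gene Angel2 fell as well (log2 fold change -3.20 ± 1.11, SE; edgeR adjusted p = 0.0395). Without cortex CD51+ replicate 3 none of these genes passed in cortex, and averaged over regions Mtpap and Angel2 passed as lower whereas Grsf1 (edgeR adjusted p = 0.0764) and Fastkd3 (edgeR adjusted p = 0.0894) did not.

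On the translation side, 54 mitochondrial ribosomal protein genes were tested. None passed in hippocampus, 1 rose in cortex (Mrpl51, a large-subunit protein), and 4 rose and 1 fell averaged over regions, where 5.05% of tested genes rose in cortex and 22.7% changed averaged over regions. The median log2 difference of the ribosomal list averaged over regions was 0.81. Without cortex CD51+ replicate 3 none passed in cortex and 1 rose averaged over regions, Mrps22 of the small subunit (edgeR adjusted p = 0.0268). Of 11 translation and insertion factors, Gfm2, which takes part in ribosome recycling, fell averaged over regions (log2 fold change -2.96 ± 0.80, SE; edgeR adjusted p = 0.0114). Of 13 mitochondrial aminoacyl tRNA synthetases, Lars2, which charges the leucine tRNAs, rose in cortex, at 6180 ± 4380 CPM in CD51+ against 1230 ± 447 CPM in CD51- (SD, n = 3; log2 fold change 2.33 ± 0.50, SE; edgeR adjusted p = 0.00421). Without cortex CD51+ replicate 3 its cortical log2 fold change was 1.56 ± 0.49 and no longer passed (SE; edgeR adjusted p = 0.0541), whereas over both regions it passed with that library (1.79 ± 0.35, edgeR adjusted p = 0.000848) and without it (1.4 ± 0.33, edgeR adjusted p = 0.00496). No other synthetase passed in cortex or averaged over regions. All 17 listed synthetases together summed to 6270 ± 4330 CPM in cortex CD51+ (SD, n = 3), so Lars2 made up most of that sum. Whether other RNA adds reads to the Lars2 row was not tested.

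Of 12 tested regulators of mitochondrial biogenesis, 1 rose and 1 fell in cortex, none passed in hippocampus, and 2 rose and 3 fell averaged over regions, where 11.3% of tested genes changed in cortex and 22.7% averaged over regions. The median log2 difference of these regulators averaged over regions was -1.35. Ppargc1a, the coactivator PGC-1 alpha that drives transcription of nuclear mitochondrial genes, was at 194 ± 170 CPM in hippocampus CD51+ against 36.3 ± 23.6 CPM in hippocampus CD51-, and at 146 ± 55.1 CPM in cortex CD51+ against 17.5 ± 26.9 CPM in cortex CD51- (SD, n = 3; log2 fold change averaged over regions 2.74 ± 0.82, SE; edgeR adjusted p = 0.0195). Nrip1, a corepressor known to restrain such genes, fell over both regions (log2 fold change -2.11 ± 0.57, SE; edgeR adjusted p = 0.0106), as did the deacetylase Sirt1 (-2.80 ± 0.88, SE; adjusted p = 0.0249). Esrrg also rose and Gabpb1 also fell averaged over regions. Without cortex CD51+ replicate 3 Ppargc1a, Nrip1 and Esrrg still passed averaged over regions (edgeR adjusted p = 0.0366, 0.0184 and 0.028). Sirt1 and Gabpb1 did not (edgeR adjusted p = 0.0547 and 0.0758).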

How the data were processed

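RNA was measured in 12 libraries, 3 in each of 4 groups. Each library started from 10 ng of RNA and gave paired reads of 150 bases, per the labels' protocols. The deposited values are raw counts: per the file headers, featureCounts 2.0.4 summed pairs by gene with the GENCODE vM25 exons, without regard to strand, primary alignments only, without pairs on different chromosomes, and with no option that assigns a pair to more than 1 gene. Overlapping neighbours (43 bases between mt-Atp8 and mt-Atp6, 14 between mt-Nd5 and mt-Nd6, 7 between mt-Nd4l and mt-Nd4) thus share pairs that at most 1 row received. Per the submitters' processing notes, STAR, mm10 and DESeq2 1.40.2 were used. How pairs with several equally good places were aligned is not stated there.

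Groups follow the sample titles. Gene symbols came from a GENCODE vM21 table, which held 55141 of 55401 IDs. Genes were kept with filterByExpr by group (minimum count 10, total 15), which left 12613. edgeR 4.0.16 (R 4.3.3) fitted all 12 libraries with 4 group levels, TMM factors and quasi-likelihood F tests, adjusted by Benjamini-Hochberg over all genes at 0.05, in 5 contrasts. The common dispersion was 1.64. CPM use TMM-scaled library sizes and were divided by exon length for levels per kb. The 37 rows were aligned to nuclear transcripts of GENCODE vM21 (GRCm38, the build of mm10) with blastn 2.17.0+ (E-value limit 1e-10), and sequences were read from those transcripts. Where a group has no count, up to 3 counts over the group are allowed, for counting error only. The test across genes was tried on simulated data first.

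The alternatives were DESeq2 1.42.0, limma-voom (limma 3.58.1), other scalings, filters and dispersions, a replicate block, single regions and left-out libraries. Chosen after seeing the data were chromosome 1 copies added to mitochondrial rows and the nuclear lists without cortex CD51+ replicate 3. The copy added was the best nuclear match of a row where that lay on chromosome 1. mt-Co1, with its best match on chromosome 2, thus received none, and mt-Atp8 received Gm28925 (81.4% identity). Deviations from the group mean were correlated between the CD51+ and CD51- libraries of a region, over all tested genes. Same-numbered libraries gave -0.0161 to 0.0168, and the other pairings -0.0265 to 0.0142. With a common dispersion of 1.64, noise in single genes could hide a shared deviation, so values near 0 cannot exclude pairing. Same-numbered hippocampus and cortex libraries were not compared. The 37 rows and the 15 gene lists were chosen with earlier results of these data known. All mRNAs and rRNAs are named, tRNAs if tested or among the 4 with most counts, and list members by p, up to 4 passing or else 2 not passing. The text leaves some of these out.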

Additional observations from a re-analysis of the deposited data

How the results depend on the processing

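Of 1199 values of named mitochondrial rows under alternative settings, 1033 kept direction and side of the threshold, 87 fell short of it, 58 passed it and 21 changed sign. Members called in cortex (5) became 2 with the libraries of cortex alone, 3 with the 2 rRNAs left out of the table, 2 with libraries scaled to the 13 mRNAs and 1 to 8 with a library left out. In hippocampus (6) they became 10 with hippocampus alone and 0 with the mRNA scaling, which tests make-up by its construction, and 5 to 7 with a library left out. Averaged over regions (12) they became 2 with the mRNA scaling and 8 to 14 with a library left out. Between regions (0) they became 1 with DESeq2, 2 without a filter, 2 with the mRNA scaling and 0 to 2 with a library left out, and for the difference between regions (0) they became 5 without a filter and 0 to 1. Genes called in cortex (1428) became 3219 with DESeq2, 2164 with limma-voom and 879 to 1507 with a library left out. In hippocampus (418) they became 1429 with DESeq2, 885 with limma-voom, 636 without a filter, 1460 with the mRNA scaling (9 higher and 1451 lower, against 78 and 340) and 198 to 559 with a library left out. Averaged over regions (2868) a library left out gave 2112 to 3205. Between regions (24) they became 731 with DESeq2, 53 with limma-voom, 292 without a filter, 112 with robust dispersion and 11 to 69 with a library left out. For the difference between regions (0) they became 522 with DESeq2, 146 without a filter, 1 with robust dispersion, 1 with the mRNA scaling and 0 to 42 with a library left out. Signs changed with limma-voom in cortex for mt-Nd2 (-0.43) and mt-Co1 (-0.29) and between regions for mt-Rnr1 (0.0623), and without cortex CD51- replicate 1 for mt-Nd1 in cortex (-0.0649, the lowest of its left-out values, with 0.8745 the highest). With the mRNA scaling they changed in cortex for mt-Nd1 (-0.35), mt-Nd2 (-0.18), mt-Co1 (-0.0451) and mt-Nd4l (-0.11), in hippocampus for mt-Rnr1 (-0.35), mt-Rnr2 (-0.11), mt-Nd1 (-0.51), mt-Co2 (-0.29), mt-Atp8 (-0.34), mt-Atp6 (-0.21), mt-Co3 (-0.31), mt-Nd3 (-0.15) and mt-Nd4 (-0.0395), and averaged over regions for mt-Nd1 (-0.43), mt-Co3 (-0.0475), mt-Nd4l (-0.0339) and mt-Nd4 (-0.0086). That scaling moved the median of all genes by -0.86 in cortex, -1.77 in hippocampus and -1.29 averaged, and upper-quartile factors moved it by 0.23 in hippocampus and 0.18 averaged. The mean chrM share counted over the 13 mRNAs alone was 30.1% in cortex CD51+ and 49.5% in hippocampus CD51+, against 51.8% in each with all rows. Same-numbered CD51+ and CD51- libraries of a region showed no shared deviation, though noise could hide one. Those of hippocampus and cortex were not compared. Whether same-numbered libraries share animals or a sort day is not given. With the numbers as a replicate block, which ended the calls of mt-Tc in cortex and mt-Tm averaged over regions, members called were 4 in cortex, 6 in hippocampus, 11 averaged, 0 between regions and 0 for the difference, and genes called were 1260, 435, 2540, 28 and 0. Apart from the sign changes with the mRNA scaling, by construction, the cause of these changes was not tested. Depth limits the tRNAs, of which 8 did not pass the count filter.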
